A study of Arabidopsis thaliana with 12 samples.

Results

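Triple mutant seedlings that lack the transcription factors MYC2, MYC3 and MYC4 (mycT) were compared with wild-type Col-0 seedlings, over all genes and in both directions, to measure which basal transcript levels differ without these factors when no hormone is added. The comparison uses 6 of the 12 RNA-seq libraries, 3 of mycT and 3 of Col-0, chosen by the genotype label, and 20888 of the 33602 genes in the count table had enough reads to be tested. mycT combines insertion alleles of the 3 MYC genes (jin1-7, also called myc2-1, with myc3-1 and myc4-1) in the Col-0 background, and Col-0 carries none of them. The other libraries are 3 of jazQ mycT and 3 of jazQ, where jazQ carries insertions in 5 JAZ repressor genes (JAZ1, JAZ3, JAZ4, JAZ9 and JAZ10), and they serve here to measure the same MYC mutations in a second background. All plants were 8-d-old whole seedlings with roots, grown upright on sucrose medium in continuous light without added jasmonate, and about 200 seedlings were pooled for each library. The Col-0 and jazQ data were taken from an earlier series of the same group that was grown and processed in parallel, and the sources used here do not say which libraries shared a sequencing lane, so that lane and genotype cannot be told apart.

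Jasmonate is a lipid-derived hormone of wounding and defense. MYC2, MYC3 and MYC4 are related basic helix-loop-helix activators that bind G-box elements in promoters, and JAZ proteins hold them inactive until the hormone triggers JAZ degradation through the receptor COI1. Glucosinolates are sulfur-rich defense compounds of Arabidopsis and its relatives. Aliphatic glucosinolates are built from methionine after rounds of side chain elongation, indole glucosinolates are built from tryptophan, and myrosinases release toxic products from both when tissue is damaged.

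The core G-box CACGTG, which reads the same on both strands, and the related CACATG were searched on both strands in 300 bases around the annotated start of each gene, 250 before and 50 after (TAIR10.1, RefSeq). The motifs cannot overlap each other. CACGTG was present in 8.67% of the 20694 tested genes with a window, in 17.0% of the 176 genes lower in mycT and in 10.6% of the 199 genes higher in mycT. CACATG was present in 13.0%, 18.8% and 17.6% of the same sets. Of the 27 glucosinolate synthesis genes called lower 5 (18.5%) held CACGTG, as did 5 of the 13 photosynthesis genes called higher (38.5%). CACATG was present in 3 (11.1%) and 2 (15.4%) of these genes. In the 1000 bases before the start, CACGTG was present in 15.8% of all tested genes with a window. It was there in 29.6% of the 27 and 30.8% of the 13 genes, and in 26.7% of the lower and 16.6% of the higher genes. CACATG was there in 38.1% of all, 29.6% of the 27 and 30.8% of the 13 genes. For the glucosinolate genes, the 30 bases around CACGTG are shown because these genes belong to the group that changed most (capitals mark CACGTG). The choice was made after their values were seen.
FMOGS-OX3, chr1:23159751-23159780, forward strand: tcgttcaccgaaCACGTGgattggaatgag
SUR1, chr2:8880473-8880502, reverse strand: taatttttgtggCACGTGattttagttttg
BASS5, chr4:7210800-7210829, forward strand: gtgtgtcatttaCACGTGcgtatcgtggaa
IIL1, chr4:7808005-7808034, reverse strand: agtatgaagtatCACGTGattaaacgttta
CYP83A1, chr4:7992455-7992484, reverse strand: tattaattctaaCACGTGaggtttcgtaag
The motif began 50 bases before the start of SUR1, 43 before that of CYP83A1 and 38 before that of IIL1, and at base 6 of BASS5 and base 30 of FMOGS-OX3.

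The full windows of 6 genes are given next: among the 10 largest falls, the 10 largest rises and the glucosinolate lists, these are the 3 called lower with the lowest p (MAM1, CYP79B3 and IPMI2) and the 3 called higher with the lowest p (NCED4, AT3G12965 and PRX33), so that the letters in front of strongly changed genes can be read (5′ to 3′; capitals mark a motif).
MAM1, chr5:7702791-7703090, forward strand: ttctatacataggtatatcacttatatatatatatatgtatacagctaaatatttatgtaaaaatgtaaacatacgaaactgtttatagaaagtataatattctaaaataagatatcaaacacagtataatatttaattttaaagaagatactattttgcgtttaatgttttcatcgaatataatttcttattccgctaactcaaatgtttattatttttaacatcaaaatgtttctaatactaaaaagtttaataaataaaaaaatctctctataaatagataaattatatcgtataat
CYP79B3, chr2:9488163-9488462, forward strand: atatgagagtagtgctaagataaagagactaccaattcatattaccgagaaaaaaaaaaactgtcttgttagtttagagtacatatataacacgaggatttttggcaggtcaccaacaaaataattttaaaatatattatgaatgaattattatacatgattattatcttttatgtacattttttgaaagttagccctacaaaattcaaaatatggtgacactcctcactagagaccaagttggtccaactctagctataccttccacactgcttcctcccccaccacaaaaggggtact
IPMI2, chr2:17920397-17920696, forward strand: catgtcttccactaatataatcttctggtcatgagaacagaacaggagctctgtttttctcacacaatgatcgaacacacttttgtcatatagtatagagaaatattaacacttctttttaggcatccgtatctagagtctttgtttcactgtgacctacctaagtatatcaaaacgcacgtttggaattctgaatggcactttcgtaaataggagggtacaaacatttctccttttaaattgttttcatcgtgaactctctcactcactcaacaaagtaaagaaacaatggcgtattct
NCED4, chr4:10481369-10481668, forward strand: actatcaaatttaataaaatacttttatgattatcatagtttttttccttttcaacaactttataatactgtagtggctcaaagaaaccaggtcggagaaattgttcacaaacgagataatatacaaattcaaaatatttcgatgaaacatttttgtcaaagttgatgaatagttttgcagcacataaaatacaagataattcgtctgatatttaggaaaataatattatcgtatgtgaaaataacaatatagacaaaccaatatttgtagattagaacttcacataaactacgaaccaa
AT3G12965, chr3:4137625-4137924, reverse strand: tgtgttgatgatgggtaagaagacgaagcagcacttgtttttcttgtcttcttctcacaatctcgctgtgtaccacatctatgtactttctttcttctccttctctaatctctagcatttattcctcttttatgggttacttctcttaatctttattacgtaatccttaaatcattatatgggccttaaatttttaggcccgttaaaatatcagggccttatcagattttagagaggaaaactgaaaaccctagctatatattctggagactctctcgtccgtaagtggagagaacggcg
PRX33, chr3:18200337-18200636, forward strand: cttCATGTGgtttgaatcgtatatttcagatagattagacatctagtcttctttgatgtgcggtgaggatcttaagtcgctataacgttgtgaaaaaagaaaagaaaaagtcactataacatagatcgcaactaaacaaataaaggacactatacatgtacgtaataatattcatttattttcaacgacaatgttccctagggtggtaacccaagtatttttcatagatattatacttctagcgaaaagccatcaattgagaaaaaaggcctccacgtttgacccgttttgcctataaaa
Only PRX33 held a motif among these 6 windows, CACATG on the reverse strand, with its first base 247 bases before the start.

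Library totals ran between 12336090 and 26347184 counts over mycT and Col-0. mycT 1 stood apart from the other mycT libraries: rRNA took 2.56% of its counts and chloroplast genes 2.68%, while rRNA took 0.403% to 1.18% and chloroplast genes 0.355% to 0.988% in the other 5 libraries. A chi-square statistic of the counts, divided by the number of genes, was 43.2 and 31.0 between mycT 1 and the other mycT libraries, 7.1 between mycT 2 and mycT 3, and 6.1 to 14.7 among the Col-0 libraries, so that no pair was a repeat of 1 library. TPM is a length-corrected transcript abundance scaled to the same total in each library, and the median ratio of mycT to Col-0 over tested genes was −0.09 on the log2 TPM scale. Fold changes below come from counts normalised by TMM, where the median was −0.0026, and TPM is used to show levels.

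Transcripts still mapped to the 3 mutated genes. MYC2 had 13.2, 18.6 and 18.4 TPM in mycT, against 25.4, 29.02 and 23.7 TPM in Col-0. Every mycT value was below every Col-0 value, and the fitted log2 fold change was −0.55 ± 0.12 (SE) (edgeR's quasi-likelihood test, Benjamini-Hochberg adjusted p = 0.0378), a call that held in 4 of 12 leave-one-out fits, which each drop 1 library (lost without mycT 1, mycT 2, mycT 3, Col-0 1, Col-0 2, jazQ mycT 2, jazQ mycT 3 or jazQ 1, with adjusted p up to 0.167). MYC3 had 35.7, 48.2 and 50.97 TPM in mycT, against 46.1, 52.4 and 56.9 TPM in Col-0, and the ranges overlapped (log2 fold change −0.12 ± 0.11 (SE), edgeR adjusted p = 0.626). MYC4 had 19.9, 21.8 and 26.1 TPM in mycT, against 18.9, 20.3 and 22.1 TPM in Col-0, again with overlap (log2 fold change 0.23 ± 0.09 (SE), edgeR adjusted p = 0.24). Reads counted on a gene model with an insertion do not show that an intact transcript was made, so these levels neither prove nor disprove the loss of function that the genotype label states.

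Of the 20888 genes, 177 (0.847%) were called lower and 200 (0.957%) higher in mycT than in Col-0 at an adjusted p under 0.05 (edgeR's quasi-likelihood test over all 12 libraries, Benjamini-Hochberg). The falls were the larger changes: 44 of the 177 were at least 2-fold, against 6 of the 200 rises, and the median log2 fold change was −0.45 among the falls and 0.36 among the rises. The genes that rose were the more highly expressed ones, with a median of 91.7 TPM over both genotypes, against 32.2 TPM for the genes that fell and 14.6 TPM for all tested genes. All 377 called genes had normalised counts (CPM) without overlap between mycT and Col-0. At an unadjusted p under 0.05, 1846 genes (8.84%) were higher and 1706 (8.17%) lower, which are the shares to set beside the unadjusted counts of gene lists below. For edgeR calls those shares are 0.957% higher and 0.847% lower, and for DESeq2 they are 425 and 293 of the 20888 genes. Over all tested genes, the 3 mycT values lay above every Col-0 value for 11% and below every Col-0 value for 10.2%.

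The number of calls moved with single libraries. Without mycT 1 the test called 26 genes higher and 56 lower, without Col-0 1 it called 44 and 70, and without Col-0 2 it called 17 and 54. Without Col-0 3 the counts grew to 262 and 291. The rises also dropped to 72 without mycT 3, 111 without jazQ mycT 2, 99 without jazQ mycT 3 and 120 without jazQ 1, and the falls to 99 without mycT 2, 99 without mycT 3, 116 without jazQ mycT 2 and 114 without jazQ mycT 3. In all 12 of these fits, 49 of the 177 falls and 14 of the 200 rises were called. Samples with the same replicate number deviated together, and a fit of the 6 libraries with the replicate number as a block (the paired fit) called 636 genes higher and 501 lower, among them 190 of the 200 rises and 172 of the 177 falls. These 636 and 501 are the totals to set beside the paired counts of gene lists. The pairing was chosen from these same data, so a call in the paired fit alone is no independent support. The same block over all 12 libraries called fewer genes than the fit without it.

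**Figure D1:**
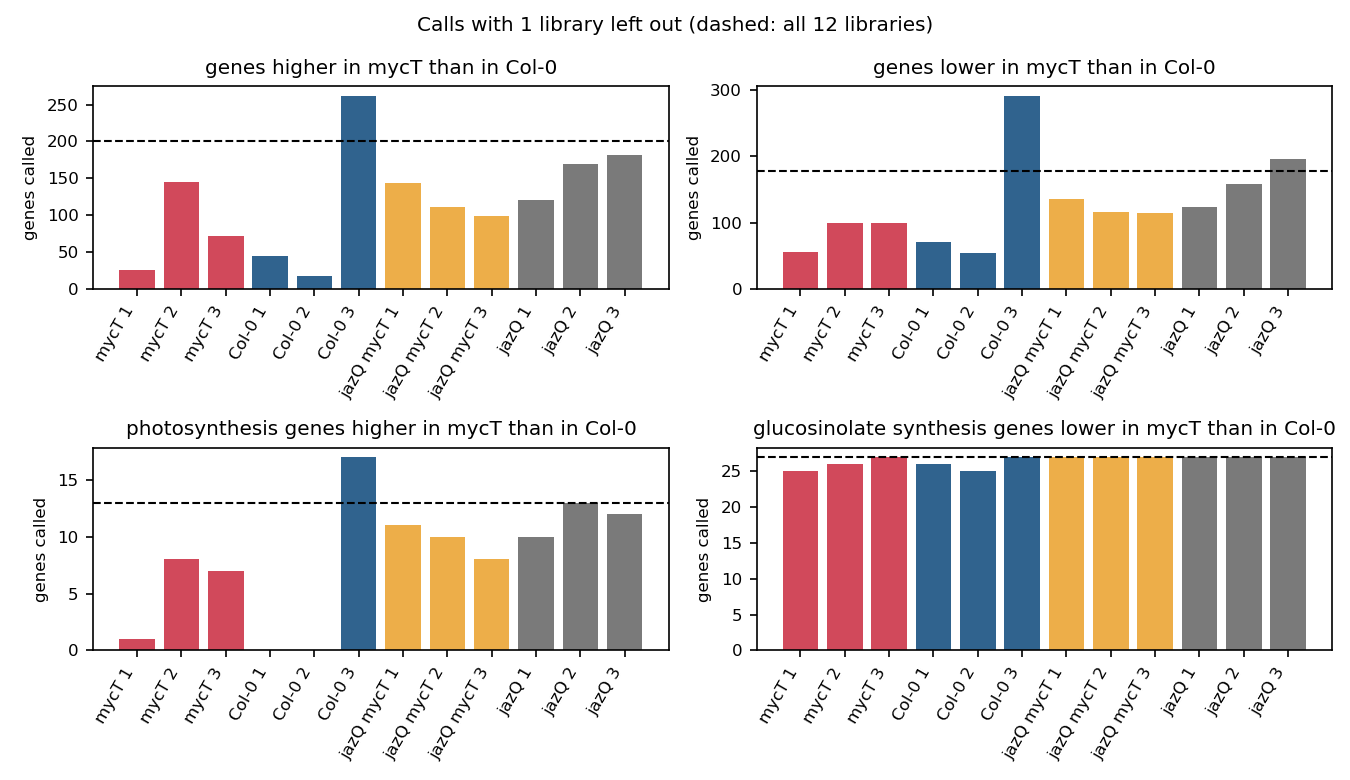
Number of genes called (vertical axes, from 0) when 1 of the 12 libraries is left out (horizontal axes, bars coloured by genotype), for rises, falls, photosynthesis genes called higher and glucosinolate synthesis genes called lower in mycT relative to Col-0. The dashed lines mark the counts with all 12 libraries, 200, 177, 13 and 27; the last panel stays between 25 and 27 while the others spread widely.

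The 10 largest falls, counting genes that averaged 5 TPM or more in mycT or Col-0 and whose TPM ranges stood apart, were IPMI1, MAM3, CYP79F1, IPMI2, AT1G52905, AK3, BCAT4, CB5-C, MAM1 and BASS5, and all were called in each of the 12 leave-one-out fits. Of these, 7 belong to aliphatic glucosinolate synthesis and are described with their pathway below. AT1G52905, annotated as an unknown protein, had 0.38, 0.4 and 1.13 TPM in mycT, against 24.3, 24.2 and 11.8 TPM in Col-0 (log2 fold change −5.03 ± 0.38 (SE), edgeR adjusted p = 1.7e-05). All mycT libraries were low, and Col-0 3 was the lowest of the Col-0 libraries. CB5-C (AT2G46650), a cytochrome b5 isoform, had 2.98, 4.1 and 2.72 TPM in mycT, against 55.2, 71.3 and 35.9 TPM in Col-0 (log2 fold change −3.91 ± 0.25 (SE), edgeR adjusted p = 2.95e-06). The groups were far apart. AK3 is an aspartate kinase and is given with methionine synthesis.

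**Figure D2:**
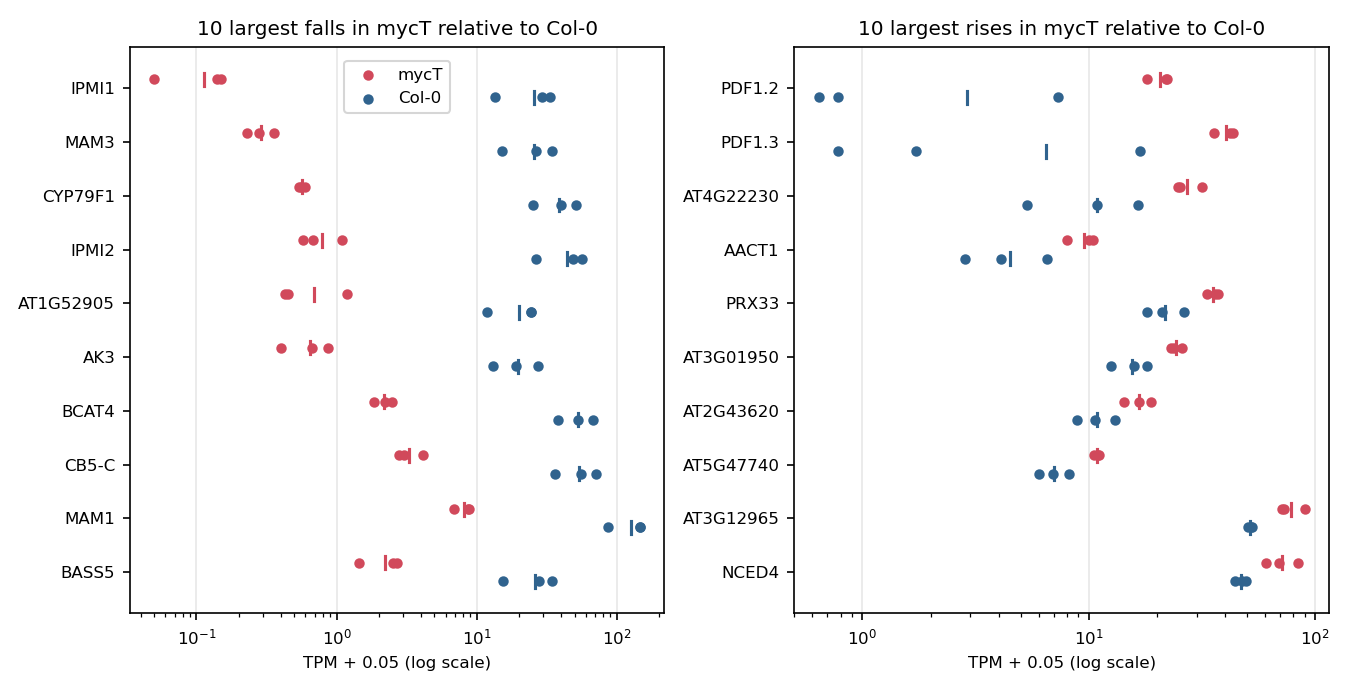
TPM + 0.05 on a log scale (horizontal axes) of the 10 genes with the largest fall (left) and the 10 with the largest rise (right) by the rule for named genes, with 1 point per library, mycT above Col-0 for each gene, and a vertical mark at the mean of 3. The mycT points of each fall lie far left of the Col-0 points, down to 0 to 0.1 TPM for IPMI1, while most rises are small shifts between narrow groups.

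Glucosinolate synthesis was the gene group with the largest falls. Of 38 tested genes in 5 lists, 27 (71.1%, beside 0.847% of all genes tested) were called lower and none higher in mycT, with a median log2 fold change of −2.06 (−0.0026 over all genes tested), and leaving out any 1 library kept 25 to 27 of them. DESeq2 called 24 of them lower and gave the other 3 (GSTF11, FMOGS-OX1 and AOP2) no adjusted p, and edgeR found no rise even at an unadjusted p under 0.05. The TPM of the listed genes summed to 1494, 1795 and 1826 in mycT, against 4078, 4191 and 3003 in Col-0. Col-0 3 was the lowest Col-0 library in most of these genes.

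Side chain elongation of methionine carried the largest changes: all 9 genes were called lower, with a median log2 fold change of −3.88. BCAT4 (AT3G19710), the aminotransferase of the first step, had 1.81, 2.16 and 2.43 TPM in mycT, against 52.6, 67.9 and 37.8 TPM in Col-0. mycT levels were all far below Col-0 (log2 fold change −4.56 ± 0.26 (SE), or 23.6-fold lower, edgeR adjusted p = 1.77e-06). MAM1 (AT5G23010), a methylthioalkylmalate synthase that condenses the chain, had 6.84, 8.84 and 8.56 TPM in mycT, against 147, 146 and 87.1 TPM in Col-0. The fall was 14.7-fold (log2 fold change −3.88 ± 0.20 (SE), edgeR adjusted p = 1.06e-06). MAM3 (AT5G23020), its neighbour on chromosome 5 and a close relative whose reads may be shared, had 0.23, 0.31 and 0.18 TPM in mycT, against 34.5, 26.7 and 15.2 TPM in Col-0 (log2 fold change −6.55 ± 0.39 (SE), edgeR adjusted p = 2.13e-06). Both genes were lower in every mycT library.

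IPMI1 (AT3G58990), a small subunit of isopropylmalate isomerase, was almost absent: it had 0, 0.1 and 0.09 TPM in mycT, against 29.4, 33.5 and 13.5 TPM in Col-0. These are 3 counts over the mycT libraries and 1354 over the Col-0 libraries, a ratio of Col-0 to mycT of 413 after scaling for depth, with a 95% interval from 141 to 2003 that covers counting error only. IPMI2 (AT2G43100), another small subunit, had 0.53, 1.04 and 0.63 TPM in mycT, against 56.9, 48.8 and 26.3 TPM in Col-0 (log2 fold change −5.77 ± 0.32 (SE), edgeR adjusted p = 1.77e-06). IPMI1 and IPMI2 both lay far below Col-0 in mycT.

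IMD1 (AT5G14200), an isopropylmalate dehydrogenase, had 12.5, 17.7 and 15.5 TPM in mycT, against 101, 93.6 and 53.8 TPM in Col-0 (log2 fold change −2.35 ± 0.20 (SE), edgeR adjusted p = 4.04e-05). BASS5 (AT4G12030), the chloroplast transporter of the keto acid intermediates, had 1.4, 2.64 and 2.47 TPM in mycT, against 27.8, 34.6 and 15.4 TPM in Col-0 (log2 fold change −3.54 ± 0.30 (SE), edgeR adjusted p = 4.61e-05). The smallest falls of the list were those of genes that also serve leucine synthesis or other amino acids. IIL1, the large subunit of the isomerase, had 123, 139 and 125 TPM in mycT, against 209.9, 228 and 170.5 TPM in Col-0 (log2 fold change −0.56 ± 0.09 (SE), edgeR adjusted p = 0.0111, lost without mycT 1 or Col-0 2, with adjusted p up to 0.0621), and BCAT3 had a log2 fold change of −0.41 ± 0.08 (SE) (edgeR adjusted p = 0.0218, lost without mycT 1, mycT 2, Col-0 1 or Col-0 2, with adjusted p up to 0.102).

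All 9 tested genes of the aliphatic core pathway were called lower, in all 12 leave-one-out fits, with a median log2 fold change of −2.49. CYP79F1 (AT1G16410), the cytochrome P450 that turns elongated methionine into an aldoxime, had 0.55, 0.49 and 0.51 TPM in mycT, against 40.2, 51.5 and 25.04 TPM in Col-0 (log2 fold change −6.32 ± 0.37 (SE), edgeR adjusted p = 1.77e-06). CYP79F2, its tandem copy, had 1.84, 2.14 and 1.58 TPM in mycT, against 31.3, 26.04 and 10.3 TPM in Col-0 (log2 fold change −3.51 ± 0.34 (SE), edgeR adjusted p = 0.000149). Reads may have been split between these near-identical copies. CYP83A1 (AT4G13770), which oxidises the aldoximes, had 7.02, 9.13 and 7.55 TPM in mycT, against 111, 107 and 57.6 TPM in Col-0 (log2 fold change −3.44 ± 0.20 (SE), edgeR adjusted p = 1.77e-06). mycT was below Col-0 in every library for each.

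The later core steps fell less. The glutathione transferases GSTF11 and GSTU20 had log2 fold changes of −2.49 and −2.07, the sulfotransferases SOT17 and SOT18 of the last step −3.08 and −2.04, and the C-S lyase SUR1, which both classes of glucosinolates share, −1.20. GGP1, a gamma-glutamyl peptidase that processes the glutathione conjugates, had the smallest change of the 9: 108, 121 and 124 TPM in mycT, against 248, 256 and 211 TPM in Col-0 (log2 fold change −0.93 ± 0.07 (SE), edgeR adjusted p = 2.98e-05). Its groups were still apart. A further entry of the core list, AT2G31790, was left out of the counts because no source used here pairs this identifier with the listed symbol. It had 42, 42.2 and 39.1 TPM in mycT, against 80.9, 75.5 and 51.98 TPM in Col-0, a smaller fall (log2 fold change −0.66 ± 0.12 (SE), edgeR adjusted p = 0.0178, lost without mycT 1, mycT 3, Col-0 1 or Col-0 2, with adjusted p up to 0.0947).

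Of 6 tested side chain modification genes, 3 were called lower, in all 12 leave-one-out fits. The S-oxygenases FMOGS-OX1 and FMOGS-OX3 and the dioxygenase AOP2 had log2 fold changes of −3.20, −2.99 and −3.17. FMOGS-OX1 had 0.43, 0.79 and 1.16 TPM in mycT, against 8.28, 8.68 and 4.57 TPM in Col-0. The other S-oxygenases showed no such gap: FMOGS-OX2, FMOGS-OX4 and FMOGS-OX5 had log2 fold changes of −0.04, −0.03 and 0.10 and were not called. FMOGS-OX5, for example, had 27.2, 28.1 and 25.98 TPM in mycT, against 29.6, 23.5 and 26.5 TPM in Col-0. DESeq2 called FMOGS-OX3 lower and gave FMOGS-OX1 and AOP2 no adjusted p.

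In the indole core pathway 6 of 7 genes were called lower, in all 12 leave-one-out fits, with a median log2 fold change of −1.85. CYP79B3 (AT2G22330), which makes indole-3-acetaldoxime from tryptophan, had 5.19, 6.85 and 6.55 TPM in mycT, against 58.7, 58.3 and 40.5 TPM in Col-0 (log2 fold change −3.00 ± 0.15 (SE), 7.99-fold lower, edgeR adjusted p = 1.06e-06). CYP79B2, which catalyses the same step, had 4.64, 5.23 and 5.03 TPM in mycT, against 45.2, 45.98 and 25.2 TPM in Col-0 (log2 fold change −2.87 ± 0.22 (SE), edgeR adjusted p = 1.7e-05). CYP83B1 (AT4G31500), the next enzyme, had 16.9, 19.7 and 19.5 TPM in mycT, against 106, 107 and 72.5 TPM in Col-0 (log2 fold change −2.25 ± 0.14 (SE), edgeR adjusted p = 2.55e-06). Each was lower in all mycT libraries but was still detected in each of them.

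GSTF9, a glutathione transferase of the pathway, had 191, 234 and 245 TPM in mycT, against 981, 989 and 604 TPM in Col-0 (log2 fold change −1.85 ± 0.15 (SE), edgeR adjusted p = 3.36e-05). The glucosyltransferase UGT74B1 and the sulfotransferase SOT16 had log2 fold changes of −1.36 and −1.15, and GSTF10, the neighbour of GSTF9, was not called (0.01). None of 7 genes for indole ring modification was called by edgeR or DESeq2, and none had an unadjusted p under 0.05. Their median was 0.25, and the paired fit called 2 higher, CYP81F4 and CYP81F2 (adjusted p = 0.0449 and 0.0387). CYP81F4, which hydroxylates the indole ring, had 195, 261 and 252 TPM in mycT, against 189.9, 209 and 233 TPM in Col-0, with overlap. CYP81F2, which hydroxylates another position, varied within both genotypes and had 5.71, 15.8 and 41.9 TPM in mycT, against 6.31, 9.65 and 27.4 TPM in Col-0. In each genotype the library numbered 3 was far above the one numbered 1.

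**Figure D3:**
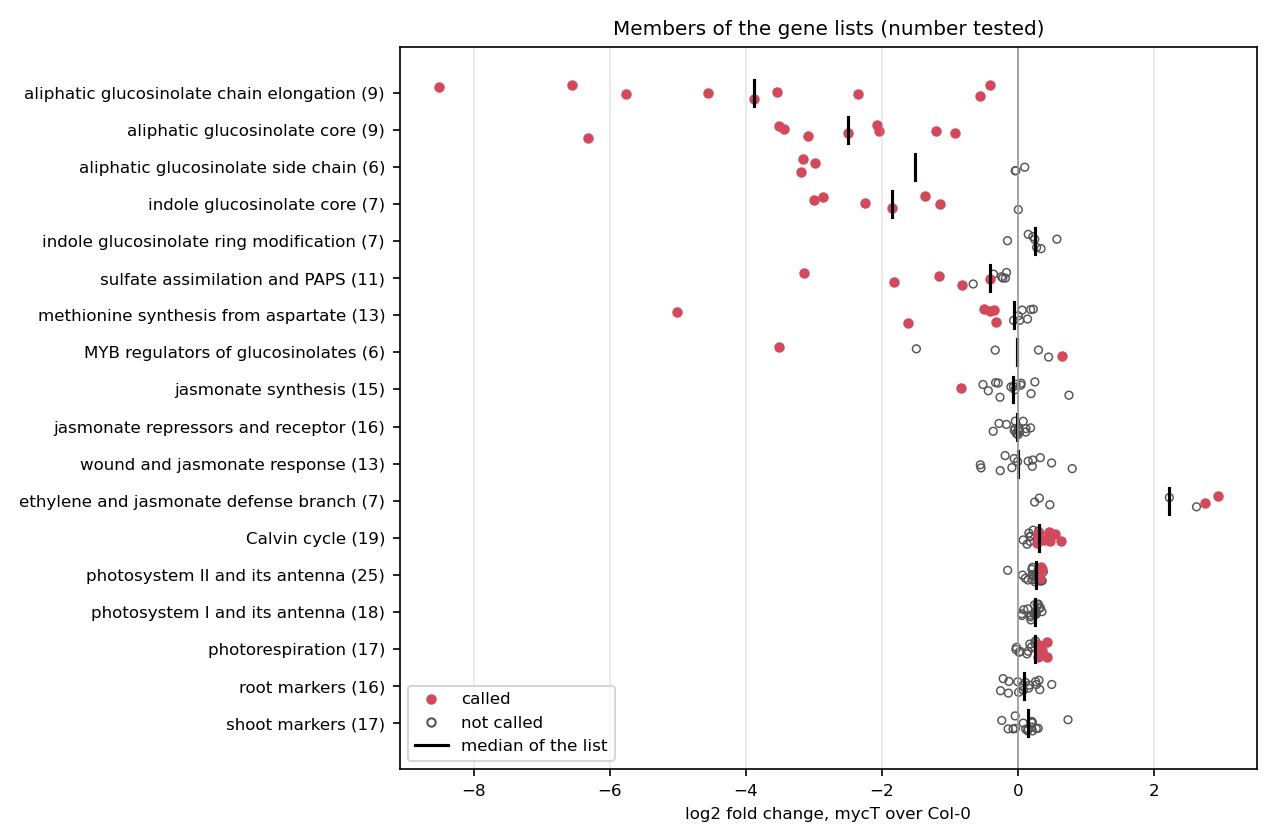
log2 fold change of mycT over Col-0 (horizontal axis) for each tested member of the gene lists named on the vertical axis (number tested in brackets), with filled points for called genes, open points for genes not called and a black bar at the list median. Medians run from −3.88 for chain elongation and −2.49 for the aliphatic core to 0.30 for the Calvin cycle and 2.23 for the ethylene and jasmonate defense branch.

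The MYB transcription factors that regulate these pathways were called in either direction: 1 of 6 was called lower and 1 higher, with a median of −0.01, and the paired fit called 2 lower and 3 higher. MYB76 (AT5G07700), an activator of aliphatic genes, was low throughout: 0.06, 0.12 and 0.11 TPM in mycT, against 1.17, 1.7 and 0.97 TPM in Col-0 (1, 2 and 1 counts in mycT, against 23, 17 and 13 in Col-0). No fold is given at this depth (edgeR adjusted p = 0.0178, lost without mycT 1, mycT 2, Col-0 1 or Col-0 2, with adjusted p up to 0.0857, no adjusted p from DESeq2). MYB29 had 1.47, 2.78 and 1.61 TPM in mycT, against 3.96, 9.44 and 4.95 TPM in Col-0. It missed the threshold (log2 fold change −1.49 ± 0.35 (SE), edgeR adjusted p = 0.0555) and passed it in the paired fit (adjusted p = 0.00128). MYB28, the main activator of the aliphatic pathway, had 47.6, 63.1 and 44.7 TPM in mycT, against 48.2, 44.9 and 39.5 TPM in Col-0, with overlap (log2 fold change 0.30 ± 0.09 (SE), edgeR adjusted p = 0.123, 0.0375 in the paired fit).

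MYB34 (AT5G60890), an activator of indole glucosinolate and tryptophan genes, rose: it had 61.8, 76.6 and 58.7 TPM in mycT, against 38.3, 46.9 and 49.2 TPM in Col-0 (log2 fold change 0.65 ± 0.12 (SE), edgeR adjusted p = 0.0249, lost without mycT 1, mycT 2, Col-0 1 or Col-0 2, with adjusted p up to 0.0947). All mycT values were above all Col-0 values, opposite in direction to the indole core genes. MYB51 had 22.2, 41.5 and 69.3 TPM in mycT, against 22.4, 23.5 and 55.1 TPM in Col-0, and MYB122 had 0.31, 0.5 and 0.86 TPM in mycT, against 0.67, 0.66 and 0.76 TPM in Col-0. The groups overlapped for both, and neither was called (log2 fold changes 0.45 and −0.33), though the paired fit called MYB51 higher (adjusted p = 0.0405). For MYB51, as for CYP81F2, the libraries numbered 3 were the highest of both genotypes.

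Of 9 tested genes of tryptophan synthesis, 2 were called lower, both subunits of the first enzyme, anthranilate synthase. ASA1 had 22.1, 22.2 and 21.6 TPM in mycT, against 34.05, 33.4 and 27.5 TPM in Col-0 (log2 fold change −0.43 ± 0.08 (SE), edgeR adjusted p = 0.0249), and ASB1 had 30.7, 34.5 and 29.8 TPM in mycT, against 46.2, 45.5 and 39.5 TPM in Col-0 (log2 fold change −0.37 ± 0.07 (SE), edgeR adjusted p = 0.0218). ASA1 was lost without mycT 1, mycT 2, mycT 3, Col-0 1 or Col-0 2, with adjusted p up to 0.118, and ASB1 was lost without mycT 1, mycT 3, Col-0 1 or Col-0 2, with adjusted p up to 0.102. The glucosinolate transporters GTR1 and GTR2 were not called by edgeR or DESeq2, neither had an unadjusted p under 0.05, and GTR1 had 28.4, 33.4 and 40.4 TPM in mycT, against 29.96, 36.3 and 36.4 TPM in Col-0.

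Genes that supply activated sulfate were lower too. Of 11 genes of sulfate assimilation and PAPS synthesis, 5 were called lower by edgeR and 5 by DESeq2, with a median log2 fold change of −0.41, and all 11 estimates were negative. PAPS (3′-phosphoadenosine 5′-phosphosulfate) is the sulfate donor of the sulfotransferases. APK2 (AT4G39940), an APS kinase that makes PAPS, had 3.21, 4.75 and 5.96 TPM in mycT, against 49.3, 50.1 and 27.6 TPM in Col-0 (log2 fold change −3.14 ± 0.24 (SE), edgeR adjusted p = 1.95e-05). APK1, a second kinase, had 24.5, 33.9 and 26.2 TPM in mycT, against 118, 130.1 and 72.8 TPM in Col-0 (log2 fold change −1.83 ± 0.18 (SE), edgeR adjusted p = 0.000149). The kinases and the reductase APR1 were called in all 12 leave-one-out fits.

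APR1, an APS reductase of the branch to cysteine, had 35.2, 44.99 and 56.7 TPM in mycT, against 102, 128 and 93.6 TPM in Col-0 (log2 fold change −1.16 ± 0.15 (SE), edgeR adjusted p = 0.00223). The ATP sulfurylases APS3 and APS1 had log2 fold changes of −0.82 and −0.41, where APS3 was lost without mycT 1, mycT 2, Col-0 1, Col-0 2, jazQ mycT 2 or jazQ 1, with adjusted p up to 0.151 and APS1 was lost without each library but mycT 3, jazQ 2 and jazQ 3, with adjusted p up to 0.138. APR2 and APR3, which encode the same activity as APR1, were not called (−0.17 and −0.24), and APR2 had 225, 247 and 217 TPM in mycT, against 249, 322 and 258 TPM in Col-0. None of 6 markers of sulfur deficiency was called by edgeR or DESeq2. Their median was −0.44, all 6 estimates were negative, 1 had an unadjusted p under 0.05 and the paired fit called 2 lower. SHM7 had 37.0, 46.8 and 60.4 TPM in mycT, against 50.4, 67.1 and 75.05 TPM in Col-0. Its ranges overlapped (log2 fold change −0.33 ± 0.18 (SE), edgeR adjusted p = 0.39, 0.0147 in the paired fit). LSU2, the least changed of the 6 (−0.15), had 19.1, 21.3 and 20.7 TPM in mycT, against 20.97, 32.5 and 20.04 TPM in Col-0, with overlap.

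Some further genes were grouped after their values had been seen. Of 3 phosphatases of PAP, the by-product of sulfotransferases, SAL1 and AHL were called lower. SAL1 had 29.02, 33.02 and 27.2 TPM in mycT, against 47.4, 47.4 and 37.7 TPM in Col-0 (log2 fold change −0.47 ± 0.10 (SE), edgeR adjusted p = 0.0318), and AHL had a log2 fold change of −0.35 ± 0.07 (SE) (edgeR adjusted p = 0.0322). Neither call held in all 12 leave-one-out fits. Of 13 genes that lead from aspartate to methionine, the precursor of aliphatic glucosinolates, 6 were called lower and none higher, and DESeq2 called 5 lower and 1 higher. AK3 (AT3G02020), an aspartate kinase, stood apart from the rest: it had 0.35, 0.62 and 0.82 TPM in mycT, against 19.03, 27.2 and 12.97 TPM in Col-0 (log2 fold change −5.01 ± 0.38 (SE), edgeR adjusted p = 1.7e-05). HMT3, a homocysteine methyltransferase, had 0.74, 0.86 and 0.31 TPM in mycT, against 1.7, 2.84 and 2.32 TPM in Col-0 (log2 fold change −1.62 ± 0.34 (SE), edgeR adjusted p = 0.0374, lost without each library but Col-0 1, jazQ 2 and jazQ 3, with adjusted p up to 0.148). The log2 fold changes of MS2, DMR1 and CBL, which act in homoserine and methionine synthesis, were −0.50, −0.34 and −0.32, and those calls held in 4, 9 and 8 of the 12 fits.

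Few genes that break glucosinolates down were called. Of 13 tested genes for myrosinases and specifier proteins, MBP2, a myrosinase-binding protein, was the 1 called lower, 7.69% beside 0.847% of all genes tested (lost without mycT 1, mycT 2, mycT 3, Col-0 2, Col-0 3, jazQ mycT 1, jazQ mycT 2 or jazQ mycT 3, with adjusted p up to 0.148). DESeq2 gave it no adjusted p and called no other member, and the paired fit called 2 lower and 1 higher. MBP2 had 0, 0 and 0.05 TPM in mycT, against 0.29, 1.1 and 0.81 TPM in Col-0, and is at or near 0 in mycT, so no fold is given. TGG1 (AT5G26000), a myrosinase of leaves, had 932, 1051 and 1042 TPM in mycT, against 900.2, 977 and 1041 TPM in Col-0. The ranges overlapped (log2 fold change 0.14 ± 0.11 (SE), edgeR adjusted p = 0.547). TGG2 had 112, 149 and 123 TPM in mycT, against 98.7, 147 and 148 TPM in Col-0, also with overlap. Of 8 genes of ER bodies, which store beta-glucosidases, BGLU18 was called lower: it had 8.03, 11.3 and 9.43 TPM in mycT, against 21.8, 41.5 and 27.9 TPM in Col-0 (log2 fold change −1.56 ± 0.32 (SE), edgeR adjusted p = 0.0316, lost without mycT 1, mycT 2, mycT 3, Col-0 2, jazQ mycT 2 or jazQ mycT 3, with adjusted p up to 0.143). NAI1, the regulator of ER bodies, had a log2 fold change of 0.03 and was not called.

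Few jasmonate genes were called. Of 15 tested genes of jasmonate synthesis, AOC2 was the 1 called lower (6.67%, beside 0.847% of all genes tested, and DESeq2 called 2 lower), and the list median was −0.06. The paired fit called 4 lower (AOC2, LOX2, AOC1 and AOS) and LOX4 higher. AOC2 (AT3G25770), an allene oxide cyclase, had 114, 130.1 and 124 TPM in mycT, against 231, 279 and 190.1 TPM in Col-0 (log2 fold change −0.83 ± 0.13 (SE), edgeR adjusted p = 0.00967, called in all 12 leave-one-out fits). Its groups did not overlap. The other genes were not called without the block. The lipoxygenase LOX2 had 25.3, 33.9 and 29.6 TPM in mycT, against 38.1, 56.5 and 40.6 TPM in Col-0 (log2 fold change −0.51 ± 0.21 (SE), edgeR adjusted p = 0.23, 0.00466 in the paired fit), and OPR3, the reductase that follows the cyclase, had 12.8, 11.8 and 13.8 TPM in mycT, against 16.8, 17.9 and 16.4 TPM in Col-0 (log2 fold change −0.33 ± 0.08 (SE), edgeR adjusted p = 0.0687). AOS, the allene oxide synthase, overlapped, with 39.2, 54.4 and 45.9 TPM in mycT, against 47.3, 74.4 and 59.95 TPM in Col-0. AOC1, a close relative of AOC2 whose reads may be shared, had a log2 fold change of −0.43 ± 0.11 (SE) (edgeR adjusted p = 0.0753, 0.00507 in the paired fit).

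None of 16 tested genes for JAZ repressors, their partners and the receptor was called by edgeR or DESeq2, with a median log2 fold change of −0.01 and 3 genes at an unadjusted p under 0.05. JAZ1 had 32.3, 33.95 and 46.5 TPM in mycT, against 59.95, 49.1 and 44.2 TPM in Col-0 (log2 fold change −0.36 ± 0.13 (SE), edgeR adjusted p = 0.178), JAZ9 had a log2 fold change of −0.28, and JAZ2, JAZ3, JAZ4, JAZ5, JAZ6, JAZ7, JAZ10, JAZ11 and JAZ12 lay between −0.04 and 0.12. JAZ12 had 51.4, 61.9 and 59.2 TPM in mycT, against 59.9, 63.2 and 59.8 TPM in Col-0. JAZ8, which had 0.22, 0.58 and 0.4 TPM in mycT, against 0.57, 0.74 and 0 TPM in Col-0, was not tested. Of 7 tested genes that inactivate jasmonate, CYP94B1, a hydroxylase of the active hormone, was called higher, and the paired fit also called 1 lower. It had 10.6, 10 and 11.3 TPM in mycT, against 7.72, 8.72 and 7.89 TPM in Col-0 (log2 fold change 0.49 ± 0.09 (SE), edgeR adjusted p = 0.0232, lost without mycT 1, mycT 3, Col-0 1 or Col-0 2, with adjusted p up to 0.102).

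None of 13 tested wound and jasmonate response genes was called by edgeR or DESeq2 (median −0.003, 1 gene at an unadjusted p under 0.05), and the paired fit called 1 lower, CORI3 (adjusted p = 0.00801). VSP2 (AT5G24770), a storage protein and acid phosphatase often used as a marker of jasmonate response, had 2, 3.03 and 2.87 TPM in mycT, against 1.39, 4.13 and 2.43 TPM in Col-0, and the ranges overlapped (log2 fold change 0.15 ± 0.65 (SE), edgeR adjusted p = 0.939). VSP1 had 17.3, 22.5 and 20.6 TPM in mycT, against 11.4, 22.6 and 22.03 TPM in Col-0, also with overlap. ARGAH2, an arginase, had 61.1, 59.3 and 58.9 TPM in mycT, against 53.3, 56.7 and 54.7 TPM in Col-0, and RD26, a NAC factor, had 45.9, 55.4 and 50.5 TPM in mycT, against 69.8, 66.9 and 61.5 TPM in Col-0. Neither was called (log2 fold changes 0.21 and −0.26).

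The defensins of the ethylene and jasmonate branch, which MYC2 is known to repress, held the largest rises. PDF1.2 (AT5G44420) had 18.01, 22.2 and 21.8 TPM in mycT, against 0.59, 0.73 and 7.25 TPM in Col-0. The mycT libraries lay close together. They were above every Col-0 value, as the rule for the largest rises requires, while Col-0 3 was far above the other Col-0 libraries (log2 fold change 2.95 ± 0.58 (SE), edgeR adjusted p = 0.0284). PDF1.3 had 35.6, 41.9 and 43.2 TPM in mycT, against 0.73, 1.68 and 16.8 TPM in Col-0 (log2 fold change 2.76 ± 0.60 (SE), edgeR adjusted p = 0.0403). Over the leave-one-out fits the log2 fold change ran between 2.32 and 5.02 for PDF1.2 and between 2.08 and 5.28 for PDF1.3, highest for both without Col-0 3. PDF1.2 was lost without mycT 1, mycT 2, mycT 3, Col-0 1 or Col-0 2, with adjusted p up to 0.127, and PDF1.3 was lost without each library but Col-0 3, with adjusted p up to 0.167. DESeq2 gave PDF1.2 no adjusted p and did not call PDF1.3 (adjusted p = 0.111). PDF1.2b had 7.04, 5.23 and 5.22 TPM in mycT, against 0.32, 1.3 and 2.47 TPM in Col-0, and PDF1.2c had 5.21, 9.87 and 8.29 TPM in mycT, against 0.24, 0.47 and 3.32 TPM in Col-0. Neither was called (edgeR adjusted p = 0.0528 and 0.0731), both were in the paired fit, and reads of these near-identical genes may be split among them. ORA59, the activator of the branch, had a log2 fold change of 0.47, and PR4, a chitin-binding protein, of 0.32. Neither was called, and the paired fit called PR4 higher (adjusted p = 0.0496).

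Salicylic acid and abscisic acid genes gave no edgeR calls. Of 9 tested salicylic acid genes, DESeq2 called none, 1 had an unadjusted p under 0.05 and the paired fit called 1 higher. PR1 had 13.2, 22.96 and 33 TPM in mycT, against 59.96, 19.4 and 18.4 TPM in Col-0, and WRKY70 had 32.4, 50.98 and 68.7 TPM in mycT, against 38.4, 37.9 and 52.8 TPM in Col-0, so that both varied as much within genotypes as between them. Of 16 tested genes of the abscisic acid and cold response, DESeq2 called 1 lower and 2 had an unadjusted p under 0.05. COR47 had 300.03, 352 and 328 TPM in mycT, against 375, 415 and 386 TPM in Col-0 (log2 fold change −0.17 ± 0.05 (SE), edgeR adjusted p = 0.127), and RD22, a classical MYC2 target, had 127, 152 and 136 TPM in mycT, against 126, 145 and 136 TPM in Col-0, with overlap. Of 20 tested flavonol and anthocyanin genes, CHS, the first enzyme of the pathway, was called higher: it had 348, 377 and 358 TPM in mycT, against 308, 275 and 278 TPM in Col-0 (log2 fold change 0.42 ± 0.07 (SE), edgeR adjusted p = 0.0141, lost without mycT 1 or Col-0 2, with adjusted p up to 0.0924). The paired fit called 1 higher and 2 lower.

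The other 8 of the 10 largest rises were smaller and of mixed function. AT4G22230, a defensin-like gene, had 24.7, 25.2 and 31.7 TPM in mycT, against 5.28, 10.8 and 16.5 TPM in Col-0 (log2 fold change 1.45 ± 0.29 (SE), edgeR adjusted p = 0.0312, lost without mycT 1, mycT 2, mycT 3, Col-0 1, Col-0 2, jazQ mycT 3 or jazQ 1, with adjusted p up to 0.127). AACT1 (AT5G61160), an acyltransferase, had 7.99, 10.4 and 9.99 TPM in mycT, against 4.06, 2.79 and 6.5 TPM in Col-0 (log2 fold change 1.15 ± 0.23 (SE), edgeR adjusted p = 0.0291, lost without mycT 1, mycT 2, mycT 3, Col-0 1 or Col-0 2, with adjusted p up to 0.118). PRX33 (AT3G49110), a cell wall peroxidase, had 35.9, 36.97 and 33.2 TPM in mycT, against 20.9, 17.9 and 26.2 TPM in Col-0 (log2 fold change 0.79 ± 0.15 (SE), edgeR adjusted p = 0.0206, lost without mycT 1, mycT 2, Col-0 1 or Col-0 2, with adjusted p up to 0.0977). In each of these the lowest mycT value was above the highest Col-0 value, which the rule for the 10 largest rises requires. NCED4 (AT4G19170, also named CCD4), a carotenoid cleavage enzyme, had 69.02, 83.7 and 60.3 TPM in mycT, against 44.1, 49.4 and 47.7 TPM in Col-0 (log2 fold change 0.69 ± 0.10 (SE), edgeR adjusted p = 0.00758) and was the 1 gene of the 10 called in all 12 leave-one-out fits. AT3G01950, AT2G43620 (a chitinase family member), AT5G47740 and AT3G12965 (a non-coding RNA) had log2 fold changes between 0.69 and 0.76, and held in 2, 2, 7 and 10 of the 12 fits.

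Some photosynthesis genes were slightly higher in mycT. Of 71 tested genes in 4 lists, 13 (18.3%, beside 0.957% of all genes tested) were called higher and none lower, with a median log2 fold change of 0.25, and 69 of the 71 estimates were positive. At an unadjusted p under 0.05, 52 were higher and 1 lower, beside 8.84% and 8.17% of all genes tested. The count rested on single libraries: it was 0 without Col-0 1 or without Col-0 2, 1 without mycT 1 and 7 without mycT 3. It was 8 without mycT 2 or jazQ mycT 3 and 17 without Col-0 3. The paired fit called 38 higher, and DESeq2 called 32 higher and 1 lower. The median of the 71 genes was 0.27 without mycT 1 and 0.30 without Col-0 3, and no median was taken without the other libraries. Chloroplast-encoded reads were 2.68% of counts in mycT 1 and 0.355% and 0.521% in mycT 2 and mycT 3, against 0.657%, 0.553% and 0.988% in Col-0. A fit with rRNA and organelle genes left out kept the calls of all 53 called genes named by the rule given below. FBA1, FBA2, RBCS3B, RBCS2B, PSBO1, PSBX and PSBTN of the photosynthesis lists are among them. Any other part of these reads in the shift was not tested.

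Calvin cycle genes, which fix carbon dioxide in the stroma, held 10 of the 13 calls among 19 tested genes (median 0.30). FBA1 (AT2G21330), a plastid aldolase, had 604, 617 and 619 TPM in mycT, against 398, 398 and 471 TPM in Col-0 (log2 fold change 0.63 ± 0.11 (SE), edgeR adjusted p = 0.0154, lost without mycT 1, Col-0 1 or Col-0 2, with adjusted p up to 0.0947). RBCS3B, a small subunit of Rubisco, had 7002, 7373 and 9083 TPM in mycT, against 5549.9, 5782 and 5831 TPM in Col-0 (log2 fold change 0.54 ± 0.10 (SE), edgeR adjusted p = 0.0178, lost without Col-0 1 or Col-0 2, with adjusted p up to 0.0924). RBCS2B and FBA2 had log2 fold changes of 0.45 and 0.47, and RCA, the activase of Rubisco, of 0.39. The groups were apart in all of these, though the small subunit genes are near-identical and may share reads.

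Photosystem II and its antenna had 3 of 25 genes called higher (median 0.27, 13 in the paired fit). These were PSBO1, a subunit of the oxygen-evolving complex, with 3089, 3529.8 and 3302 TPM in mycT, against 2754, 2756 and 2931 TPM in Col-0 (log2 fold change 0.32 ± 0.07 (SE), edgeR adjusted p = 0.0311), PSBX and PSBTN (0.34 and 0.35). The calls of PSBO1, PSBX and PSBTN held in 5, 6 and 2 of the 12 leave-one-out fits. None of 18 genes of photosystem I and none of 9 of electron transport and ATP synthase was called by edgeR, with medians of 0.25 and 0.18. At an unadjusted p under 0.05 there were 11 and 7, the paired fit called 11 and 2 higher, and DESeq2 called 6 higher of the first list and 3 higher and 1 lower of the second. LHCA4 had 3937, 4496 and 4002 TPM in mycT, against 3849, 4351 and 4519.5 TPM in Col-0, and PETC, the Rieske protein, had 1828, 1939 and 1736 TPM in mycT, against 1905, 1860.4 and 1869 TPM in Col-0. LHCA1, also of photosystem I, had 2734, 3032.5 and 3141 TPM in mycT, against 2611, 2924 and 3022 TPM in Col-0. LHCA4, LHCA1 and PETC overlapped between genotypes. All 18 photosystem I estimates were positive, and that of LHCA4 was the lowest (log2 fold change 0.06, with 0.15 for LHCA1). PETE2, more abundant in Col-0 than PETC and of the same list, did not overlap and was not called. It had 3176, 3072 and 3081 TPM in mycT, against 2857, 2985 and 2957 TPM in Col-0 (log2 fold change 0.18 ± 0.07 (SE), edgeR adjusted p = 0.185).

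Photorespiration, a group added after its values had been seen, had 7 of 17 genes called higher (41.2%, beside 0.957% of all genes tested) and none lower (median 0.25, DESeq2 called 10 higher). GLDP1, a subunit of glycine decarboxylase, had 593, 623 and 591 TPM in mycT, against 494, 500.2 and 505 TPM in Col-0 (log2 fold change 0.36 ± 0.06 (SE), edgeR adjusted p = 0.0121, lost without mycT 1, Col-0 1 or Col-0 2, with adjusted p up to 0.0751), and CAT2, a peroxisomal catalase, had 720.2, 761 and 691 TPM in mycT, against 512, 588 and 620.1 TPM in Col-0 (log2 fold change 0.43 ± 0.09 (SE), edgeR adjusted p = 0.0354, lost without mycT 1, mycT 2, mycT 3, Col-0 1, Col-0 2, jazQ mycT 2 or jazQ mycT 3, with adjusted p up to 0.129). Genes described as ribosomal proteins, also grouped afterwards, had 23 of 343 called higher (6.71%, beside 0.957% of all genes tested) and none lower (median 0.11, DESeq2 called 48 higher and 2 lower, the paired fit 47 higher and 1 lower). Of 12 tested genes of chlorophyll synthesis, GUN4, an activator of magnesium chelatase, was called higher (the paired fit called 2). It had 216, 219 and 207 TPM in mycT, against 182, 161 and 185 TPM in Col-0 (log2 fold change 0.37 ± 0.07 (SE), edgeR adjusted p = 0.0266, lost without mycT 1, mycT 2, Col-0 1 or Col-0 2, with adjusted p up to 0.118). Of 5 genes of chlorophyll breakdown, NYC1, a chlorophyll b reductase, was called lower. It had 115, 124 and 110.05 TPM in mycT, against 176, 192 and 158 TPM in Col-0 (log2 fold change −0.50 ± 0.11 (SE), edgeR adjusted p = 0.0378, lost without each library but Col-0 3, jazQ 2 and jazQ 3, with adjusted p up to 0.169).

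Genes of the circadian clock (13 tested), iron homeostasis (15) and phosphate starvation (9) gave no edgeR calls, with medians of −0.12, −0.04 and 0.06. At an unadjusted p under 0.05 there were 4, 2 and 0 genes, beside 8.84% of all genes higher and 8.17% lower, and DESeq2 called 1 clock gene lower and none of the others. The paired fit called 3 clock genes lower, 2 iron genes higher and 2 lower, and 1 phosphate gene lower, among them LHY, BHLH100 and SPX1 as lower (adjusted p = 0.044, 0.0326 and 0.0326). LHY, a morning clock factor, had 102, 121 and 102 TPM in mycT, against 139.8, 160.2 and 118 TPM in Col-0, and BHLH100, an iron regulator, had 83.5, 72.9 and 71.7 TPM in mycT, against 206, 109 and 84.3 TPM in Col-0. SPX1, a phosphate sensor, had 56.5, 55.3 and 32.5 TPM in mycT, against 93.7, 72.4 and 36.7 TPM in Col-0. The iron and phosphate genes shown varied widely among the Col-0 libraries. Markers of roots (16 tested) and shoots (17 tested) gave no edgeR or DESeq2 calls, with 3 and 4 genes at an unadjusted p under 0.05, and the paired fit called 1 shoot marker higher. The median over the root markers was 0.10, and they summed to 204, 209.7 and 213 TPM in mycT, against 218, 196 and 204 TPM in Col-0. The median over the shoot markers was 0.15, and they summed to 345, 349 and 357 TPM in mycT, against 315, 319 and 341 TPM in Col-0. Both sets of markers were detected, as the label of whole seedlings requires. In whole seedlings, fewer cells of a type and less RNA per cell cannot be told apart.

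Outside the lists, several called genes are annotated near these pathways and were picked after their values were seen. DJ1F (AT3G54600), a class I glutamine amidotransferase-like protein, had 7.25, 10.99 and 9.18 TPM in mycT, against 37.6, 39.7 and 23.8 TPM in Col-0 (log2 fold change −1.79 ± 0.18 (SE), edgeR adjusted p = 0.000291), and AT1G52000, a mannose-binding lectin, had 2.21, 2.88 and 2.37 TPM in mycT, against 7.4, 10.7 and 7.54 TPM in Col-0 (log2 fold change −1.66 ± 0.21 (SE), edgeR adjusted p = 0.00167). The methionine sulfoxide reductases ATMSRB4 and ATMSRB5, which repair oxidised methionine, had log2 fold changes of −1.36 and −0.76, and PMSR2 of −0.57, while PMSR4, of the same activity, rose by 0.37. AtMYB47, a transcription factor, was the largest rise called in all 12 leave-one-out fits: it had 4.02, 4.85 and 4.53 TPM in mycT, against 0.97, 1.54 and 2.08 TPM in Col-0 (log2 fold change 1.67 ± 0.25 (SE), edgeR adjusted p = 0.00757). RHM1, an enzyme of rhamnose synthesis, had 109, 123 and 106 TPM in mycT, against 78.9, 75.2 and 83.6 TPM in Col-0 (log2 fold change 0.60 ± 0.07 (SE), edgeR adjusted p = 0.000892), and GAMMA-TIP, a vacuolar aquaporin, had 414, 495 and 505 TPM in mycT, against 375, 325 and 350.2 TPM in Col-0 (log2 fold change 0.52 ± 0.07 (SE), edgeR adjusted p = 0.00443). Neither overlapped between genotypes.

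The same MYC mutations were measured a second time in libraries that share no sample with those above, as jazQ mycT against jazQ. That comparison called 183 genes lower (0.876%) and 278 higher (1.33%). Of the 177 genes lower in mycT, 149 (84.2%) were also lower by estimate in jazQ mycT and 61 were called lower there, which is 34.5% of the 177 and 33.3% of the 183. Of the 200 genes higher in mycT, 166 (83%) had the same sign and 22 were called higher, 11% of the 200 and 7.91% of the 278. The median log2 fold changes in jazQ mycT relative to jazQ were −0.19 for the 177 genes and 0.11 for the 200, against −0.45 and 0.36 in mycT relative to Col-0. The 83 genes called the same way in both became 42 to 98 when single libraries were left out (42 without Col-0 2, 45 without mycT 1, 46 without jazQ mycT 2, 51 without Col-0 1, 53 without mycT 2 and 55 without jazQ mycT 3).

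Of the 278 genes higher in jazQ mycT than in jazQ, 132 lay in the first 1.2 Mb of chromosome 2, where 201 of 208 tested genes had a positive log2 fold change, with a median of 0.52. In mycT relative to Col-0, 2 of these 208 genes were called higher and 4 lower, with a median of −0.03. The cause of the chromosome 2 shift was not tested, and the region was noticed after the values were seen. Outside it, 146 genes were called higher and 183 lower in jazQ mycT.

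The 83 shared calls included most of the glucosinolate genes: 26 of the 27 glucosinolate genes lower in mycT were also called lower in jazQ mycT, and GGP1 was the other (log2 fold change −0.29, edgeR adjusted p = 0.0709). Of the 13 photosynthesis genes higher in mycT, RBCS2B was the 1 called higher in jazQ mycT, and the list median there was −0.01. AOC2 and NYC1 were lower in both (−0.98 and −0.57 in jazQ mycT), and MYB34 and CYP94B1 were higher in both (0.70 and 0.68). In jazQ mycT, AOC1 and OPR3 of jasmonate synthesis were also called lower (−0.81 and −0.81), as were VSP2, CORI3 and NATA1 of the wound response (−2.37, −1.05 and −4.86), none of them with an interaction past the threshold. The defensins were higher in jazQ mycT too: PDF1.2 had 10.2, 15.5 and 23.1 TPM in jazQ mycT, against 0.54, 0 and 0.23 TPM in jazQ, and PDF1.3 had 58.6, 54.6 and 76.8 TPM in jazQ mycT, against 0, 0 and 0.4 TPM in jazQ. With jazQ at or near 0, no fold is given. AtMYB47 and AACT1 were also higher in jazQ mycT (log2 fold changes 3.00 and 2.74). RHM1 was not: its log2 fold change there was −0.03 (interaction −0.62 ± 0.10 (SE), edgeR adjusted p = 0.0126).

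**Figure D4:**
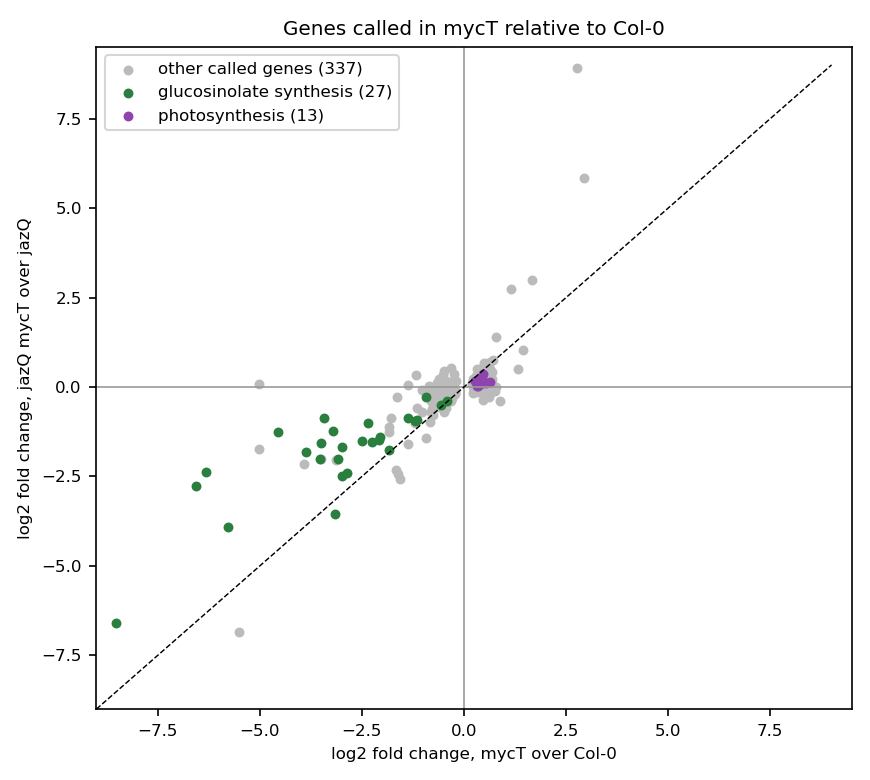
log2 fold change of jazQ mycT over jazQ (vertical axis) against that of mycT over Col-0 (horizontal axis) for the 377 genes called in mycT, with 27 glucosinolate synthesis genes in green, 13 photosynthesis genes in purple and the other 337 in grey, and a dashed line of equal values. Most glucosinolate genes fell less in jazQ mycT than in mycT; fitted values of genes at or near 0 counts, such as those at the far corners, depend on the small count added in the fit.

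Several falls were smaller in the jazQ background. The interaction, the effect of the MYC mutations in jazQ minus their effect in Col-0, passed the threshold for 121 genes (0.579%), of which 69 lay in the chromosome 2 region. Among the 377 genes called in mycT it did so for 20 that fell and 9 that rose, and among the 27 glucosinolate genes for 7, all aliphatic. MAM1 had 57.4, 55.9 and 52.5 TPM in jazQ mycT, against 206, 242 and 185 TPM in jazQ. It was lower in jazQ mycT, yet above its mycT level in every library (interaction 2.06 ± 0.25 (SE), edgeR adjusted p = 0.00303). BCAT4 had 42.8, 36.4 and 34.2 TPM in jazQ mycT, against 97.4, 114 and 82.04 TPM in jazQ (interaction 3.31 ± 0.33 (SE), edgeR adjusted p = 0.000702). CYP83A1 had 56.6, 61.7 and 59.9 TPM in jazQ mycT, against 116, 120.1 and 114 TPM in jazQ (interaction 2.57 ± 0.26 (SE), edgeR adjusted p = 0.000702).

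MAM3, CYP79F1, IMD1 and GGP1 were the other aliphatic genes with an interaction. CYP79F1 had 14.1, 13.3 and 10.8 TPM in jazQ mycT, against 71.2, 87.2 and 56.2 TPM in jazQ, so that jazQ mycT kept a level at which mycT had almost none. No gene of the indole core passed it: CYP79B3 had 13.4, 12.8 and 11.5 TPM in jazQ mycT, against 76.3, 80.8 and 69.8 TPM in jazQ (interaction 0.52 ± 0.20 (SE), edgeR adjusted p = 0.356), and GSTF9 had 214, 291 and 261 TPM in jazQ mycT, against 976, 896 and 903 TPM in jazQ. CYP79B3 was nevertheless above its mycT level in every jazQ mycT library. A test that misses the threshold does not show that both effects were equal. At the top of the difference, AT1G52905 had 14.8, 18.3 and 17.2 TPM in jazQ mycT, against 17.6, 14.7 and 18.3 TPM in jazQ, with overlapping ranges (interaction 5.12 ± 0.46 (SE), edgeR adjusted p = 0.000353).

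**Figure D5:**
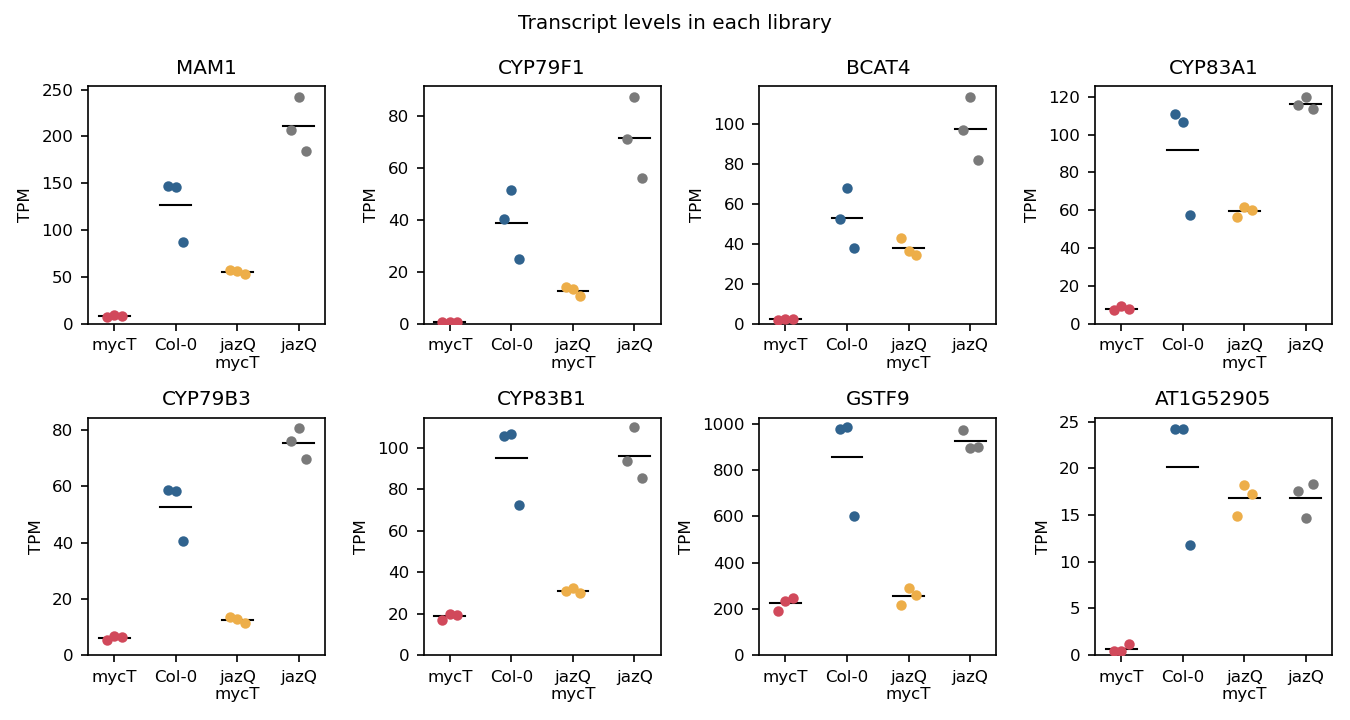
TPM (vertical axes, from 0) of 8 genes in each library of mycT, Col-0, jazQ mycT and jazQ (horizontal axes), with 1 point per library and a line at the mean of 3. The aliphatic genes MAM1, CYP79F1, BCAT4 and CYP83A1 are higher in jazQ mycT than in mycT, the indole genes CYP79B3 and CYP83B1 and GSTF9 are lower in both mutants than in Col-0 and jazQ, with CYP79B3 and CYP83B1 also above their mycT levels in jazQ mycT, and AT1G52905 is near 0 only in mycT among these 4 genotypes.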

How the data were processed

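Sequencing reads of each library had been filtered and mapped to TAIR10 gene models by the authors, who deposited expected counts per gene from RSEM 1.2.11, written as whole numbers. The deposited TPM values come from the same RSEM runs and correct for gene length, so that they depend on how much of a library the most abundant genes take. No source used here says whether counting used strand. The 12 libraries held 12336090 to 26347184 counts, no other column was present (0 columns of other samples), and replicates were not pooled.

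Counts were tested with edgeR 4.0.16 (R 4.3.3) using the quasi-likelihood F test, TMM normalisation, the filterByExpr filter and 1 model over 4 genotypes with 3 libraries each, so that the spread is shared. Calls required a p under 0.05 after Benjamini-Hochberg adjustment over all genes tested, and the standard error is the log2 fold change divided by the square root of F. The contrasts were mycT minus Col-0, jazQ mycT minus jazQ, and their difference (interaction). Alternatives were DESeq2 1.42.0, limma-trend (limma 3.58.1) on log2(TPM + 1) and log2(TPM + 0.1), other filters and size factors, the mycT and Col-0 libraries alone, a replicate block and each library left out. The scripts were tested on simulated counts before use. Tables and figures were made with Python 3.11.15, numpy 2.4.6, pandas 2.3.3, scipy 1.17.1 and matplotlib 3.10.9.

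Same-numbered mycT and Col-0 libraries were taken as pairs because the correlations of their deviations from the genotype means were 0.25, 0.13 and 0.31, against −0.29 to 0.05 for other pairs. The pairs were thus chosen from these same data. Deviations of libraries from their genotype mean sum to 0, so that these correlations depend on each other. What the replicate number marks is not given. The replicates are described as independent samples of pooled seedlings.

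Genes named are the 10 largest falls and the 10 largest rises among called genes with at least 5 TPM on average in mycT or Col-0 and no overlap in TPM, up to 4 called members of each list (or the 2 most abundant in Col-0 where none was called), and the MYC, JAZ and MYB genes. Genes outside this rule are said to have been picked after their values were seen, or stand as examples of their list. The members, the 32 gene lists (382 entries, of which 10 were left out because symbol and identifier did not match) and 4 further groups were chosen with earlier results of these data known. Promoters and their coordinates were read from the TAIR10.1 RefSeq genome.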

Additional observations from a re-analysis of the deposited data

Results flagged for a closer look

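For 9 genes named by the rule, the effect of the MYC mutations differed between the jazQ and the Col-0 background by edgeR's interaction test (Benjamini-Hochberg over all genes tested). The differences are log2 values, the effect in jazQ minus the effect in Col-0. They were 3.79 for MAM3 (adjusted p = 0.00592), 3.93 for CYP79F1 (adjusted p = 0.00303), 3.31 for BCAT4 (adjusted p = 0.000702), 2.06 for MAM1 (adjusted p = 0.00303) and 2.57 for CYP83A1 (adjusted p = 0.000702), all aliphatic glucosinolate genes that fell in both backgrounds and less in jazQ mycT. Outside the glucosinolate lists they were 5.12 for AT1G52905 (adjusted p = 0.000353), 3.29 for the aspartate kinase AK3 (adjusted p = 0.00828) and 1.76 for CB5-C (adjusted p = 0.0327).

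JAZ3 went the other way, with a difference of −1.20 (adjusted p = 0.0133). Its log2 fold change was −1.22 in jazQ mycT relative to jazQ and −0.02 in mycT relative to Col-0, and jazQ carries an insertion in JAZ3, so that the reads counted there come from a mutated gene.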

How the results depend on the processing

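Glucosinolate synthesis genes called lower numbered 24 to 27 under every alternative run, 25 to 27 when single libraries were left out. The other counts moved with several alternatives. With DESeq2 there were 425 rises, 293 falls, 32 photosynthesis rises and 131 calls shared with the jazQ background. With the mycT and Col-0 libraries alone there were 13 rises, 48 falls and 1 photosynthesis rise, and with the replicate block added to that fit there were 636, 501 and 38. The block over all 12 libraries gave 150 rises and 147 falls. limma-trend gave 20 rises, 113 falls and 0 photosynthesis rises on log2(TPM + 1), 15 rises and 0 photosynthesis rises on log2(TPM + 0.1), and 8 rises, 72 falls, 0 photosynthesis rises and 38 shared calls without a filter. An adjusted p under 0.01 left 15 rises, 49 falls, 0 photosynthesis rises and 36 shared calls, and a log2 fold change of at least 1 left 6, 44, 0 and 36. Leaving out single libraries gave 17 to 262 rises, 54 to 291 falls, 0 to 17 photosynthesis rises and 42 to 98 shared calls. Other size factors, count filters and the removal of rRNA and organelle genes moved no count by over 1.5 times. Of the 53 genes named by the rule that were called, none changed sign under any of the 23 alternatives; 23 lost their call with the mycT and Col-0 libraries alone, 26 without mycT 1 and 28 without Col-0 2, and none lost it in the replicate block with those libraries. The causes were not tested. At 0 to 2 counts per library (IPMI1, MYB76 and MBP2 in mycT), depth limits what can be said of size.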

Other observations

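The first 1.2 Mb of chromosome 2 stood apart in the jazQ background, a pattern noticed after the values were seen. Of 208 tested genes there, 132 (63.5%) were called higher and 0 lower in jazQ mycT than in jazQ by edgeR, against 0.706% called higher among the other 20680 genes. The median log2 fold change was 0.52, and 201 of the 208 estimates were positive. In the next 1.2 Mb, 5 of 107 genes were called higher and 2 lower, with a median of −0.04. mycT relative to Col-0 showed no such shift, with medians of −0.03 and −0.05 in the same stretches. The region holds 69 of the 121 genes with an interaction. AT2G01820, EXGT-A3 and PLP, which lie in it, were called lower in mycT and higher in jazQ mycT, and they are the 3 genes called in opposite directions.

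Some defense genes deviated alike in mycT and Col-0 libraries with the same replicate number. LOX4, a lipoxygenase of jasmonate synthesis, had 1.27, 9.04 and 25.4 TPM in mycT 1, mycT 2 and mycT 3, against 1.08, 4.11 and 16.3 TPM in Col-0 1, Col-0 2 and Col-0 3. Its log2 fold change was 0.75 without a call by edgeR (adjusted p = 0.75), and the paired fit called it higher (adjusted p = 0.0077). What the replicate number marks is not given, and its part in these values was not tested.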
